A study of Mus musculus with 24 samples.

Results

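Young LT-HSC were compared with young MPP, the ends of the stem and multipotent progenitor compartment of mouse bone marrow as it was sorted in this study. Both populations came from male C57BL/6 mice aged 12 weeks, and both were lineage negative and positive for the surface proteins Sca1 and Kit after enrichment of the marrow for CD117, which is Kit. Young LT-HSC (long-term hematopoietic stem cells) were CD150+ and CD48-, and young MPP (multipotent progenitors) were CD150- and CD48+. The members are the 8 libraries of these 2 groups, 4 young LT-HSC and 4 young MPP, of 24 libraries in the series, and all genes tested are described. Young ST-HSC (short-term hematopoietic stem cells, CD150- and CD48-, 4 libraries, 12 weeks) are given beside them for their level. Aged LT-HSC and aged MPP (4 libraries each, 107 weeks, the same gates, strain and sex) give the same pair of populations in other mice. The labels name 4 mice per age and no treatment or transgene, and they do not tie a library number to a mouse. If libraries of 1 group share a mouse, the p-values measure only the spread between these libraries, which may be technical.

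LT-HSC can rebuild all blood lineages for life after transplantation and divide rarely in the adult. MPP of the CD48+ gate have lost durable self-renewal, cycle often and feed the lymphoid and myeloid lineages. The gate holds several progenitor types, and a bulk library averages over them. Expression is given as CPM, which are counts put on 1 library size with TMM factors. CPM values are shares of the RNA sequenced and not molecules per cell. A value after ± is the SD of 4 libraries, a log2 change is young LT-HSC minus young MPP unless another pair is named, and coordinates are those of the GENCODE M21 annotation of GRCm38. In such bulk libraries fewer cells of a type and less RNA per cell cannot be told apart.

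Young LT-HSC libraries held 7583212 to 12946550 counts and young MPP libraries 7480426 to 8784383. A library had counts for 14416 to 16024 genes. The 45S ribosomal RNA gene Rn45s took 9.01 ± 1.82% of the counts in young LT-HSC and 8.74 ± 1.38% in young MPP (SD, n = 4). On the first principal component of the 12 young libraries, which held 47.6% of the variance, young LT-HSC lay between -73.1 and -58.7, young ST-HSC between -4.97 and 5.08 and young MPP between 61.8 and 65.0. Markers of other cell types took small shares of the counts in both groups. Markers of B and plasma cells took 0.00459 ± 0.000617% in young LT-HSC and 0.0194 ± 0.0136% in young MPP. Those of mast cells, basophils and eosinophils took 0.000269 ± 0.000125% in young LT-HSC and 0.0165 ± 0.0231% in young MPP, and those of endothelial and stromal cells 0.0161 ± 0.00223% in young LT-HSC and 0.0477 ± 0.0223% in young MPP. These 3 shares were lower in young LT-HSC with an exact permutation p of 0.0286 each, the smallest that 4 against 4 libraries can give, and 0.0571 after adjustment over the lists. Over the 8 libraries Pecam1 gave 39.7% of the endothelial and stromal marker counts. In that list Pecam1 and Pdgfrb were called lower, and Kdr and Emcn higher, in young LT-HSC. Granulocyte markers took 0.00151% in young LT-HSC and 0.00309% in young MPP, monocyte markers 0.0101% in young LT-HSC and 0.0142% in young MPP, and erythroblast markers 0.0175% in young LT-HSC and 0.0177% in young MPP, and these did not pass the unadjusted test. Markers of T and NK cells took 0.00189% in young LT-HSC and 0.00137% in young MPP (exact permutation p = 0.0286, adjusted p = 0.0571), 34.6% of it from Cd4, while Cd3e, Cd2, Ncr1 and Gzma had no count in the 8 libraries.

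**Figure D1:**
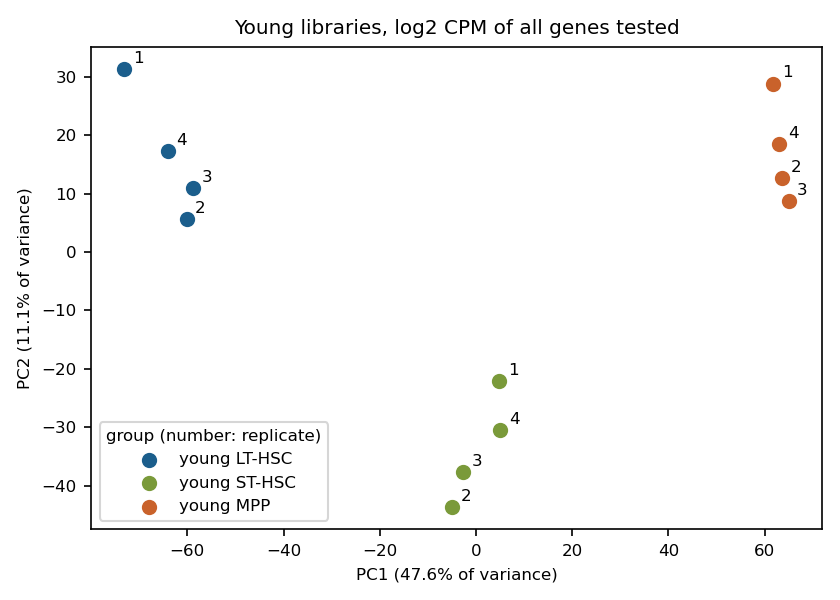
First and second principal components of the 12 young libraries, computed on log2 CPM of all genes tested; each point is a library, numbered by replicate, with young LT-HSC in blue, young ST-HSC in green and young MPP in orange. The groups separate on the first component (47.6% of the variance), with young ST-HSC between the others.

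A few libraries stood apart from their group. Young LT-HSC library 1 had 682 CPM of Mpo, which encodes myeloperoxidase of granulocyte precursors, where young LT-HSC libraries 2 to 4 had 1.53, 3.86 and 0.533 CPM. Young MPP library 4 had 284 CPM of Jchain, the joining chain of secreted antibodies, where young MPP libraries 1 to 3 had 0.689, 1.85 and 0.243 CPM. In young MPP library 3 the markers of mast cells, basophils and eosinophils took 0.0511% of the counts, against 0.00287 to 0.00607% in the other 3. The difference in the share of these markers, young LT-HSC minus young MPP, was -0.0162 percentage points, and -0.00471 without young MPP library 3. That of B and plasma cell markers was -0.0148, and -0.00825 without young MPP library 4. That of endothelial and stromal markers was -0.0316, and -0.0205 without young MPP library 1. Without young LT-HSC library 1 the count of genes past the threshold over the whole comparison was 4675 in place of 5287.

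The sort itself was visible in the RNA. Slamf1, which encodes CD150 (chromosome 1, 171767127 to 171801184), had 31.8, 25.4, 23.0 and 24.6 CPM in young LT-HSC libraries 1 to 4, against 0, 1.45, 0.487 and 0.241 CPM in young MPP libraries 1 to 4. Cd48 (chromosome 1, 171682009 to 171705258) had 0.356, 0.255, 3.54 and 0.837 CPM in young LT-HSC libraries 1 to 4, against 65.7, 67.3, 69.9 and 62.9 CPM in young MPP libraries 1 to 4. The groups did not overlap for either gene, and since the gates chose the cells by these proteins the differences check the labels and are no finding. The log2 change of Slamf1 was 5.61, and 6.70 without young MPP library 2. That of Cd48 was -5.69, and -6.91 without young LT-HSC library 3, which held 3.54 CPM. Kit, shared by both gates, was higher in young LT-HSC (1452 ± 103 CPM in young LT-HSC against 1104 ± 87.0 CPM in young MPP, log2 change 0.39, adjusted p = 0.00014). Ly6a, which encodes Sca1, had 68.0, 53.5, 59.7 and 52.3 CPM in young LT-HSC libraries 1 to 4 and 23.3, 30, 24.1 and 43.3 CPM in young MPP libraries 1 to 4. Its log2 change of 0.95 had adjusted p = 0.019 in all 8 libraries, and 0.052, 0.058 and 0.057 without young LT-HSC library 1 and young MPP libraries 1 and 3.

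Genes that define LT-HSC in the literature matched the labels. Mecom, which encodes the stem cell transcription factor EVI1 (chromosome 3, 29951296 to 30548008), had 363, 328, 336 and 343 CPM in young LT-HSC libraries 1 to 4, against 73.2, 75.5, 92.6 and 71.3 CPM in young MPP libraries 1 to 4 (log2 change 2.13, SE 0.09, adjusted p = 1.5e-15). Vwf, which encodes von Willebrand factor, the platelet adhesion protein (chromosome 6, 125546774 to 125686679), had 463, 294, 332 and 286 CPM in young LT-HSC libraries 1 to 4, against 4.82, 16.2, 9.25 and 16.1 CPM in young MPP libraries 1 to 4. Also higher were Fgd5 with 282 ± 58.0 CPM in young LT-HSC against 43.9 ± 3.50 CPM in young MPP, Procr, the protein C receptor gene, with 49.5 ± 11.0 CPM in young LT-HSC against 15.3 ± 3.08 CPM in young MPP, Hlf with 1088 ± 97.9 CPM in young LT-HSC against 665 ± 83.2 CPM in young MPP and Hoxb5 with 7.04 ± 1.21 CPM in young LT-HSC against 0.520 ± 0.188 CPM in young MPP. Of the genes that mark MPP, Flt3, the receptor of FLT3 ligand (chromosome 5, 147330741 to 147400489), had 26.7, 31.7, 28.4 and 28.0 CPM in young LT-HSC libraries 1 to 4, against 501, 451, 479 and 511 CPM in young MPP libraries 1 to 4 (log2 change -4.08, SE 0.14, adjusted p = 5.9e-17). Cd34, a sialomucin of progenitors, averaged 174 ± 48.6 CPM in young LT-HSC against 829 ± 8.17 CPM in young MPP (log2 change -2.25). Cd27, a TNF receptor family member, averaged 119 ± 6.38 CPM in young LT-HSC against 199 ± 13.8 CPM in young MPP (log2 change -0.74). None of these 9 genes had overlapping groups.

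Over all 14205 genes tested, 5287 (37.2%) passed an adjusted p of 0.05. The test was the quasi-likelihood F test of edgeR, adjusted over all genes by the Benjamini-Hochberg method. Of the genes that passed, 2683 (18.9%) were higher in young LT-HSC and 2604 (18.3%) lower. Scaled by library totals alone, 2985 were higher and 2136 lower. Large differences ran mostly one way. At least 2-fold differences were called for 1414 higher and 737 lower genes, at least 8-fold differences for 419 higher and 179 lower, and at least 16-fold for 224 higher and 118 lower. The median log2 change over all genes was 0.0015, so the scaling left the bulk of genes level. All 4 young LT-HSC values lay above all 4 young MPP values for 18.3% of genes and below them for 17.8%.

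Largest in log2 rise among the named genes was Meg3, a maternally expressed imprinted RNA that is not translated (chromosome 12, 109541001 to 109571726). It had 62.4, 29.5, 62.0 and 28.2 CPM in young LT-HSC libraries 1 to 4, against 0, 0, 0 and 0.241 CPM in young MPP libraries 1 to 4. Young MPP thus held 2 counts of Meg3 in all, and the ratio of young LT-HSC to young MPP after scaling was 725 (95% counting interval 200.3 to 5988). Counting intervals and floors cover counting error only. The Hedgehog pathway genes Evc and Evc2, which encode partner proteins at the base of the primary cilium and lie next to each other on chromosome 5, had 21.8 ± 4.69 and 40.8 ± 10.6 CPM in young LT-HSC, against 2 and 3 counts in all of young MPP. The ratios of young LT-HSC to young MPP were 357 (95% counting interval 98.5 to 2953) for Evc and 447 (95% counting interval 153 to 2169) for Evc2. All of those counts were in young MPP library 1, as were the 2 counts of Runx1t1, which encodes a transcriptional corepressor of the ETO family, at 24.0 ± 11.9 CPM in young LT-HSC, a ratio of 388 (95% counting interval 107 to 3209.8). Sdpr, the caveolar coat gene also called Cavin2, followed the same pattern, with 50.4, 40.5, 30.5 and 50.1 CPM in young LT-HSC libraries 1 to 4 and 1.03 CPM in young MPP library 1 alone.

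Further genes of this set had folds set by low young MPP levels. Tgm2, which encodes the protein-crosslinking enzyme transglutaminase 2 (chromosome 2, 158116402 to 158146436), had 661, 559, 491 and 523 CPM in young LT-HSC libraries 1 to 4, against 17.3, 12.9, 9.13 and 12.8 CPM in young MPP libraries 1 to 4 (log2 change 5.42, SE 0.40, adjusted p = 3.6e-09). Clec1a, a C-type lectin receptor gene, averaged 46.5 ± 16.5 CPM in young LT-HSC against 0.358 ± 0.261 CPM in young MPP. Cyp26b1, which encodes an enzyme that degrades retinoic acid, averaged 50.2 ± 18.2 CPM in young LT-HSC against 0.326 ± 0.407 CPM in young MPP. Nbea, a membrane trafficking gene, had 186 ± 32.1 CPM in young LT-HSC against 4.58 ± 2.86 CPM in young MPP. Shroom3, an actin-binding protein gene, had 26.6 ± 5.81 CPM in young LT-HSC against 0.477 ± 0.651 CPM in young MPP, Pclo, a presynaptic scaffold gene, 20.5 ± 3.30 CPM in young LT-HSC against 0.523 ± 0.891 CPM in young MPP, Lancl3 21.9 ± 7.38 CPM in young LT-HSC against 0.530 ± 0.694 CPM in young MPP and Sytl5, a Rab effector gene, 27.8 ± 8.63 CPM in young LT-HSC against 0.680 ± 0.593 CPM in young MPP. Single libraries weighed on these folds. The log2 changes were 7.18 for Cyp26b1 (8.16 without young MPP library 4), 5.74 for Shroom3 (7.22 without library 1), 5.34 for Pclo (7.79 without library 2) and 5.36 for Lancl3 (6.65 without library 3). For the genes above, the log2 change was 7.22 for Sdpr, and 11.64 without young MPP library 1, which also moved Evc, Evc2 and Runx1t1 (8.20, 8.61 and 8.33) to 10.67, 11.57 and 10.80. Meg3 (9.25) moved to 11.72 without young MPP library 4. Each stayed past the threshold.

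The genes of largest fall were led by Dntt, which encodes terminal deoxynucleotidyl transferase, the enzyme that adds random bases to rearranging antigen receptor genes (chromosome 19, 41029275 to 41059525). It had no count in any young LT-HSC library and 243, 206, 249.5 and 337 CPM in young MPP libraries 1 to 4, so it was at least 3370.2-fold lower in young LT-HSC, against a floor of 3 counts over the group. Sema3d, a secreted guidance protein gene, and Drc7, a gene of the motile cilium, also had no count in young LT-HSC. They averaged 27.7 ± 2.56 and 26.4 ± 8.92 CPM in young MPP, and were at least 361-fold and 344-fold lower in young LT-HSC. Rag1, which encodes a subunit of the recombinase of antigen receptor genes, had 3 counts in all of young LT-HSC and 25.8, 17.7, 56.2 and 47.8 CPM in young MPP libraries 1 to 4, a ratio of young MPP to young LT-HSC of 483 (95% counting interval 165 to 2344). Emp1, a membrane protein gene, had 3 counts in all of young LT-HSC against 24.5 ± 3.64 CPM in young MPP, a ratio of 319.8 (95% counting interval 109 to 1554). The fitted log2 change of Rag1 was -8.68, and -9.45 without young LT-HSC library 4. That of Emp1 was -8.07, and -8.99 without young LT-HSC library 3.

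Several further genes of this set are known from lymphoid, mast cell or myeloid cells. Tespa1, a T cell receptor signaling gene (chromosome 10, 130322870 to 130364111), had 1.42, 1.92, 4.38 and 1.22 CPM in young LT-HSC libraries 1 to 4, against 111, 126, 129 and 111 CPM in young MPP libraries 1 to 4 (log2 change -5.75, SE 0.32, adjusted p = 6.9e-12). Cd244, a receptor for CD48 itself, averaged 3.31 ± 2.54 CPM in young LT-HSC against 116 ± 11.0 CPM in young MPP. Cd33, a sialic acid binding receptor of myeloid cells, averaged 0.770 ± 0.699 CPM in young LT-HSC against 74.0 ± 17.7 CPM in young MPP. Arpp21, a lymphoid phosphoprotein gene, averaged 0.230 ± 0.336 CPM in young LT-HSC against 45.5 ± 5.62 CPM in young MPP and Bex6 0.534 ± 0.459 CPM in young LT-HSC against 24.0 ± 4.06 CPM in young MPP. Chdh, which encodes choline dehydrogenase, averaged 2.19 ± 1.82 CPM in young LT-HSC against 105 ± 31.4 CPM in young MPP. Cpa3, the mast cell carboxypeptidase gene, had 1.07, 2.17, 1.88 and 0.761 CPM in young LT-HSC libraries 1 to 4, against 42.7, 17.6, 93.8 and 35.2 CPM in young MPP libraries 1 to 4 (log2 change -5.05). Its highest value was in young MPP library 3, where the mast cell, basophil and eosinophil markers (which include Cpa3) also peaked. Their part in its fall was not tested. Rab44 had 9.13, 0.128, 0.104 and 0.533 CPM in young LT-HSC libraries 1 to 4, against 197, 44.5, 99.6 and 185 CPM in young MPP libraries 1 to 4. Within young MPP the libraries had the same order for Rab44 as for Mpo, and within young LT-HSC library 1 was the highest for both. Without young LT-HSC library 1 the log2 change of Rab44 was -8.75 in place of -5.84, that of Arpp21 -9.17 in place of -7.68, and that of Chdh -6.38 in place of -5.68. Without young LT-HSC library 3 Cd244 changed by -5.77 in place of -5.11. Chdh overlaps Cacna1d, Tgm2 overlaps Rprd1b and Nbea overlaps Mab21l1 on the other strand, and the library chemistry as described does not mark strand.

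**Figure D2:**
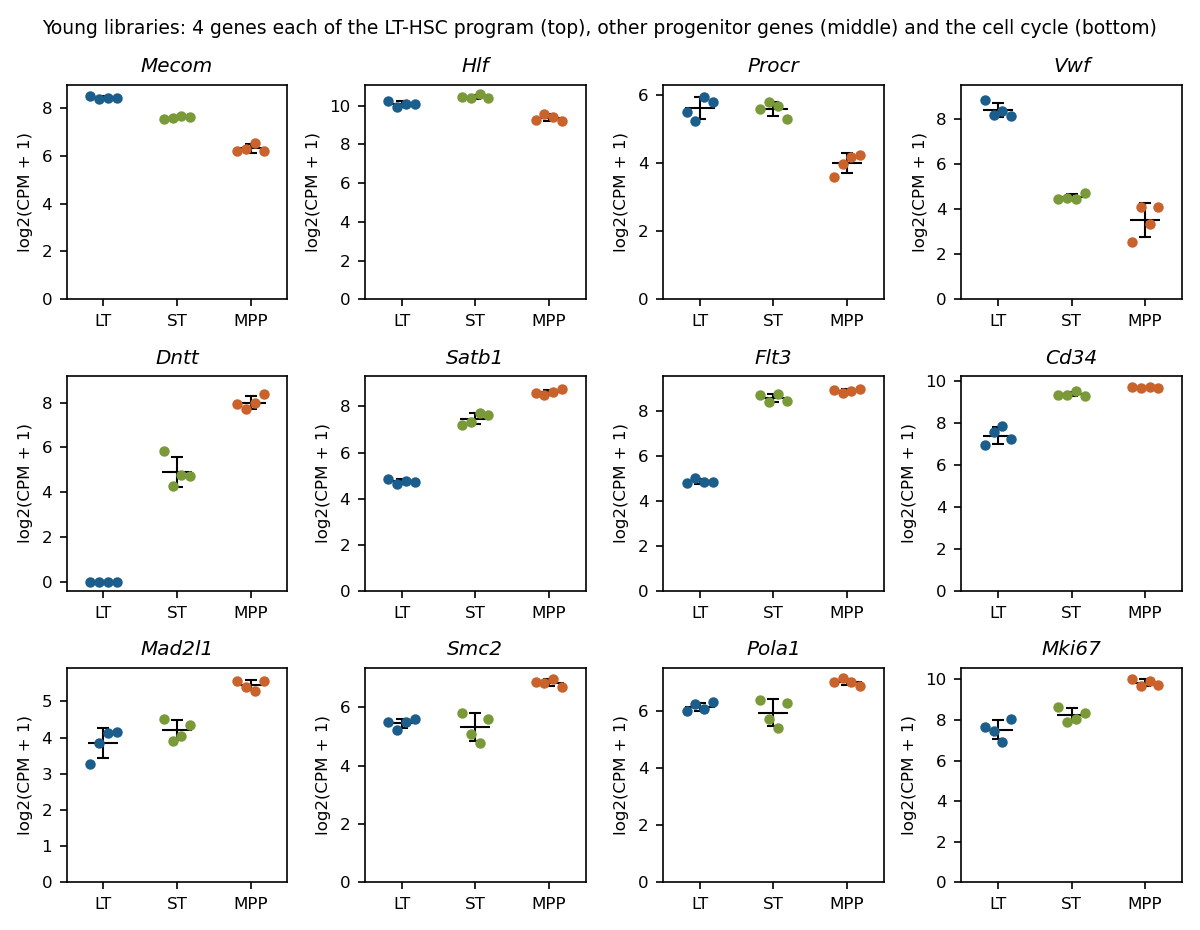
Level of 12 named genes in the 12 young libraries, as log2(CPM + 1), with young LT-HSC (LT) left of young ST-HSC (ST) and young MPP; points are libraries, and the black mark and bar are the mean ± SD of 4. Mecom, Vwf and Procr are higher, and Flt3, Satb1, Dntt and the cell cycle genes lower, in young LT-HSC than in young MPP without overlap, and the young ST-HSC mean is close to that of young LT-HSC for Procr and above it for Hlf.

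In the list of genes tied to LT-HSC, 41 of 43 tested genes were higher in young LT-HSC, 1 was lower and 1 did not pass, against 18.9% of all genes higher. The median log2 change of the list was 1.97. Mllt3, a regulator of stem cell maintenance, averaged 332 ± 55.7 CPM in young LT-HSC against 51.3 ± 6.43 CPM in young MPP (log2 2.70, adjusted p = 1.8e-14). Sult1a1, a sulfotransferase gene, averaged 117 ± 21.1 CPM in young LT-HSC against 10.2 ± 1.55 CPM in young MPP (log2 3.51, adjusted p = 8e-15). The gene Sgf29 overlaps Sult1a1 on the other strand. The member that was lower was Vldlr, a lipoprotein receptor gene, and the one that did not pass was Hoxa9. The list was written with earlier results of these data known, so its direction is a description.

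Homeobox genes of the HOX and TALE families pattern the embryo and sustain self-renewal in blood stem cells. Of 29 tested, 21 were higher in young LT-HSC and 4 lower, against 18.9% and 18.3% of all genes. The median log2 change of the list was 1.41. The higher members came from the Hoxa, Hoxb and Hoxc clusters (15 genes) and included Meis1, Meis2, Meis3 and Pbx3. Meis1 averaged 629 ± 26.9 CPM in young LT-HSC against 339 ± 24.5 CPM in young MPP (log2 0.89, adjusted p = 7.3e-09), Hoxa10 42.3 ± 4.51 CPM in young LT-HSC against 14.4 ± 4.34 CPM in young MPP (log2 1.55, adjusted p = 9.9e-08) and Hoxb3 16.7 ± 2.28 CPM in young LT-HSC against 4.41 ± 0.863 CPM in young MPP (log2 1.92, adjusted p = 3.7e-08). Lower in young LT-HSC were Pbx4, Pknox1, Hhex and Hlx, the last a myeloid and lymphoid regulator.

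Genes of megakaryocytes and platelets were mostly higher in the stem cell gate. Of 30 tested, 20 were higher, only Plek was lower and 9 did not pass, with a median log2 change of 1.45. Mmrn1, which encodes a platelet granule protein (chromosome 6, 60924976 to 60989378), had 434, 311, 331 and 350.4 CPM in young LT-HSC libraries 1 to 4, against 40.2, 46.1, 42.7 and 48.6 CPM in young MPP libraries 1 to 4 (log2 change 3.00, SE 0.13, adjusted p = 3.1e-15). Zfpm1, the cofactor of GATA1, averaged 259.6 ± 21.5 CPM in young LT-HSC against 98.5 ± 12.1 CPM in young MPP (log2 1.40, adjusted p = 2.6e-10). Genes of the platelet receptor complexes Itga2b, Itgb3, Gp1ba, Gp1bb, Gp5 and Gp9 were called higher too, while Tubb1 and Ppbp, which belong to late megakaryocytes, did not pass. The erythroid list behaved otherwise, with calls below the shares over all genes (18.9% higher and 18.3% lower). Of 20 tested genes 3 were higher, the early regulators Tal1 (209.7 ± 15.9 CPM in young LT-HSC against 122 ± 12.1 CPM in young MPP) and Lmo2 (1035 ± 47.2 CPM in young LT-HSC against 739.9 ± 70.7 CPM in young MPP) and the carbonic anhydrase gene Car2 (834 ± 78.2 CPM in young LT-HSC against 569 ± 54.7 CPM in young MPP). Tfrc, the transferrin receptor gene, was lower, a call lost without young LT-HSC library 4. The other 16, among them Gata1, Klf1 and Epor, did not pass.

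Adhesion and junction genes moved both ways, with 21 of 44 tested higher and 12 lower in young LT-HSC (median log2 change 0.28). Higher were Esam, an endothelial-type junction protein used to isolate stem cells (136, 126, 113 and 126 CPM in young LT-HSC libraries 1 to 4, 13.1, 14.0, 13.9 and 17.0 CPM in young MPP libraries 1 to 4, log2 change 3.11), F11r, which encodes JAM-A (70.7 ± 8.94 CPM in young LT-HSC against 23.6 ± 4.10 CPM in young MPP), and Itga6, an integrin subunit for laminin (231 ± 11.6 CPM in young LT-HSC against 114 ± 5.58 CPM in young MPP). The leukocyte integrin subunits Itgal, Itgam, Itgax, Itga4 and Itgb7, which serve lymphocytes and myeloid cells, were lower, as was Cd34. In the list for homing, 4 of 22 genes were higher and 10 lower, against 18.9% and 18.3% of all genes. Cd44, the hyaluronan receptor gene, averaged 306 ± 19.7 CPM in young LT-HSC against 587 ± 42.7 CPM in young MPP (log2 -0.94, adjusted p = 9.1e-10). S1pr3, a sphingosine phosphate receptor gene, averaged 1.5 ± 1.03 CPM in young LT-HSC against 31.4 ± 4.93 CPM in young MPP (log2 -4.41, adjusted p = 8.3e-09), and Cxcr4, Ccr1, Ccr2, Ccr7 and Ccr9 were lower too. S1pr1, S1pr4, Ptger4 and Cysltr2 were higher.

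Retinoic acid holds LT-HSC in dormancy in mice, and its receptors, makers and degraders are separate genes. Of 15 genes tested 7 were higher in young LT-HSC and 2 lower. Rarb, a retinoic acid receptor gene, averaged 21.4 ± 5.19 CPM in young LT-HSC against 5.43 ± 0.577 CPM in young MPP (log2 1.97, adjusted p = 1.1e-08). It overlaps Top2b on the other strand. Aldh1a1, which encodes an enzyme that makes retinoic acid and clears aldehydes (chromosome 19, 20492715 to 20643465), had 87.1, 85.8, 60.3 and 80.9 CPM in young LT-HSC libraries 1 to 4, against 5.51, 1.32, 2.07 and 4.34 CPM in young MPP libraries 1 to 4 (log2 change 4.54, SE 0.41, adjusted p = 3.6e-08), beside the degrading enzyme gene Cyp26b1 given above. Dhrs3, whose product turns retinal back to retinol, went the other way (10.8 ± 2.83 CPM in young LT-HSC against 71.7 ± 8.94 CPM in young MPP, log2 -2.72, adjusted p = 6.9e-12). In the wider list for drug efflux and detoxification 11 of 37 genes were higher and 5 lower, against 18.9% and 18.3% of all genes. The lower count was 3 without young LT-HSC library 1 or without young MPP library 1, 2 or 3. The efflux pumps that define the dye-excluding side population were among the higher genes. Abcg2 averaged 73.6 ± 4.33 CPM in young LT-HSC against 31.5 ± 1.78 CPM in young MPP (log2 1.22, adjusted p = 2.5e-10) and Abcb1a 10.1 ± 1.02 CPM in young LT-HSC against 1.12 ± 0.343 CPM in young MPP (log2 3.15, adjusted p = 4.3e-08). The paralog Abcb1b was lower.

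In TGF-beta and BMP signaling, a brake on stem cell division, 13 of 32 genes were higher and 6 lower. Over all genes 18.9% were higher and 18.3% lower. The coreceptor genes Tgfbr3 (266 ± 25.7 CPM in young LT-HSC against 32.4 ± 9.86 CPM in young MPP, log2 3.03, adjusted p = 4.9e-10) and Eng (523 ± 31.2 CPM in young LT-HSC against 259 ± 25.4 CPM in young MPP, log2 1.02, adjusted p = 1.6e-09) were higher. The ligand gene Tgfb1 was lower (114 ± 10.9 CPM in young LT-HSC against 218 ± 8.19 CPM in young MPP, log2 -0.94, adjusted p = 1.2e-09). Eng overlaps Fpgs on the other strand. Receptors split, with Bmpr1a and Bmpr2 higher and Tgfbr2, Acvr1b and Acvrl1 lower. Of 36 Wnt and Notch genes 15 were higher and 4 lower. The Wnt receptor genes Fzd1, Fzd3, Fzd4, Fzd6, Fzd7 and Fzd8 were higher, Fzd3 at 46.9 ± 8.29 CPM in young LT-HSC against 9.56 ± 2.52 CPM in young MPP (log2 2.29, adjusted p = 3.1e-08). The coreceptor gene Lrp5 was lower (236 ± 15.1 CPM in young LT-HSC against 398 ± 48.2 CPM in young MPP, log2 -0.76, adjusted p = 4.9e-07). Notch1, the receptor that commits progenitors to T cells, was lower (249 ± 25.7 CPM in young LT-HSC against 653 ± 37.4 CPM in young MPP, log2 -1.39, adjusted p = 1.8e-10), whereas the ligand genes Jag1, Jag2, Dll1 and Dll4 were higher.

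Lymphoid genes had the lowest median of the 33 lists described. None of 30 tested was higher in young LT-HSC and 24 were lower, with a median log2 change of -3.11, against 18.3% of all genes lower. Satb1, a chromatin organizer of lymphoid progenitors (chromosome 17, 51736187 to 51833290), had 28.1, 24.1, 26.3 and 25.1 CPM in young LT-HSC libraries 1 to 4, against 385, 363, 390.0 and 432 CPM in young MPP libraries 1 to 4 (log2 change -3.92, SE 0.16, adjusted p = 3.8e-15). Il12a averaged 8.20 ± 1.87 CPM in young LT-HSC against 46.5 ± 4.73 CPM in young MPP (log2 -2.50, adjusted p = 2.6e-11). Il7r, Rag2, Ebf1, Pax5, Igll1, Vpreb1 and Blnk of the B cell path, Ccr9 and Lck of the T cell path, and Ikzf1, Mef2c and Foxp1 were called lower as well. Ikzf3, Ets1, Bcl11a, Tcf7, Tcf12 and Cd7 did not pass, and 1 member was called higher without young LT-HSC library 2 or young MPP library 2. The share of B and plasma cell markers, which include Pax5 and Ebf1 of this list, was higher in young MPP as given above. Its part in this result was not tested. Jchain rests on young MPP library 4 alone. Its log2 change of -6.59 (adjusted p = 0.04) was -0.29 (adjusted p = 0.97) without that library, and over 16 alternatives its adjusted p ran from 0.00021 to 0.97.

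Cytokine receptors also moved both ways. Of 49 tested 17 were higher and 19 lower in young LT-HSC, against 18.9% and 18.3% of all genes. Beside Flt3, the genes of smallest p were Pdgfrb, the PDGF receptor beta gene (13.3, 15.6, 17.1 and 17.0 CPM in young LT-HSC libraries 1 to 4, 191, 185, 178 and 188 CPM in young MPP libraries 1 to 4, log2 change -3.55), and Il1r1, the interleukin 1 receptor gene (11.6 ± 3.54 CPM in young LT-HSC against 118 ± 3.67 CPM in young MPP, log2 -3.34, adjusted p = 2.5e-14). Csf1r, Csf3r, Il7r, Il6ra, Il18r1 and Ifngr2 were lower as well. The higher receptors included Kit, Tek, Tie1, Il6st, Igf1r, Fgfr1 and Tnfrsf1a, and Tek and Tie1 are the angiopoietin receptor and its partner. Pdgfrb is also 1 of the markers of endothelial and stromal cells, so its own counts are part of their higher share in young MPP.

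Myeloid genes were lower as a group, though less evenly. Of 32 tested 17 were lower, 2 were higher (Csf2rb2 and Lyz2) and 13 did not pass, with a median log2 change of -2.01. Over all genes 18.3% were lower and 18.9% higher. Csf3r, the G-CSF receptor gene, had 216, 255, 214 and 227 CPM in young LT-HSC libraries 1 to 4, against 423, 545, 514 and 466 CPM in young MPP libraries 1 to 4 (log2 change -1.09, SE 0.09, adjusted p = 2e-10). Emb, an adhesion and transporter chaperone gene, averaged 32.0 ± 1.93 CPM in young LT-HSC against 124 ± 17.7 CPM in young MPP (log2 -1.95, adjusted p = 5.4e-13). Cebpa, the transcription factor gene of granulocyte and monocyte commitment, averaged 1.79 ± 1.44 CPM in young LT-HSC against 47.1 ± 11.8 CPM in young MPP (log2 -4.74, adjusted p = 6.8e-10). Cebpa changed by -5.35 without young LT-HSC library 1. When any 1 of the 8 libraries was left out, only 1 of the 2 higher members passed.

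The granule genes of granulocyte precursors varied widely between libraries of 1 group. Mpo had 682, 1.53, 3.86 and 0.533 CPM in young LT-HSC libraries 1 to 4, against 2817, 685, 893 and 1977 CPM in young MPP libraries 1 to 4. Elane, the neutrophil elastase gene, had 106, 0.128, 0.417 and 0.0761 CPM in young LT-HSC libraries 1 to 4, against 209.6, 0.264, 0 and 227 CPM in young MPP libraries 1 to 4. Ctsg, the cathepsin G gene, had 46.7, 0, 0 and 0 CPM in young LT-HSC libraries 1 to 4, against 163, 16.8, 26.8 and 166 CPM in young MPP libraries 1 to 4. In each of these genes young MPP libraries 1 and 4 were the highest, and young LT-HSC library 1 stood above the other 3 young LT-HSC libraries. Ms4a3, a gene of granulocyte and monocyte precursors, had 14.5, 0, 0.417 and 0.0761 CPM in young LT-HSC libraries 1 to 4, against 55.7, 0.660, 4.99 and 53.1 CPM in young MPP libraries 1 to 4. Ly6c2, which encodes the monocyte surface protein Ly6C, had 21.6, 0.128, 0 and 0 CPM in young LT-HSC libraries 1 to 4, against 86.1, 0.264, 0.122 and 37.1 CPM in young MPP libraries 1 to 4. In all 5 genes young LT-HSC library 1 was the only young LT-HSC library above 4 CPM. The 5 genes missed the threshold in all 8 libraries, with adjusted p = 0.06 for Mpo, 0.34 for Elane, 0.066 for Ctsg, 0.097 for Ms4a3 and 0.16 for Ly6c2. Without young LT-HSC library 1 the log2 changes were -9.73, -9.02, -12.75, -7.34 and -9.39, and the adjusted p-values 3.1e-06, 0.018, 0.0016, 0.012 and 0.0063, in the same order. Prtn3, the proteinase 3 gene, had 48.3, 23.2, 31.5 and 24.3 CPM in young LT-HSC libraries 1 to 4 and 88.9, 14.5, 30.9 and 83.1 CPM in young MPP libraries 1 to 4, and it did not pass (adjusted p = 0.24). Prtn3 overlaps Plppr3 on the other strand. In young ST-HSC Mpo averaged 63.9 ± 11.3 CPM and Elane 0.438 ± 0.240 CPM. These 6 genes and Jchain were chosen after their values were seen. Granulocyte markers (late genes such as S100a8, S100a9, Ngp and Camp) took 0.00391% of the counts in young LT-HSC library 1, against 0.000475 to 0.000991% in young LT-HSC libraries 2 to 4. In young MPP libraries 1 to 4 they took 0.00104, 0.00483, 0.00126 and 0.00525%, which is not the order of Mpo. Their part in the granule gene values was not tested.

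**Figure D3:**
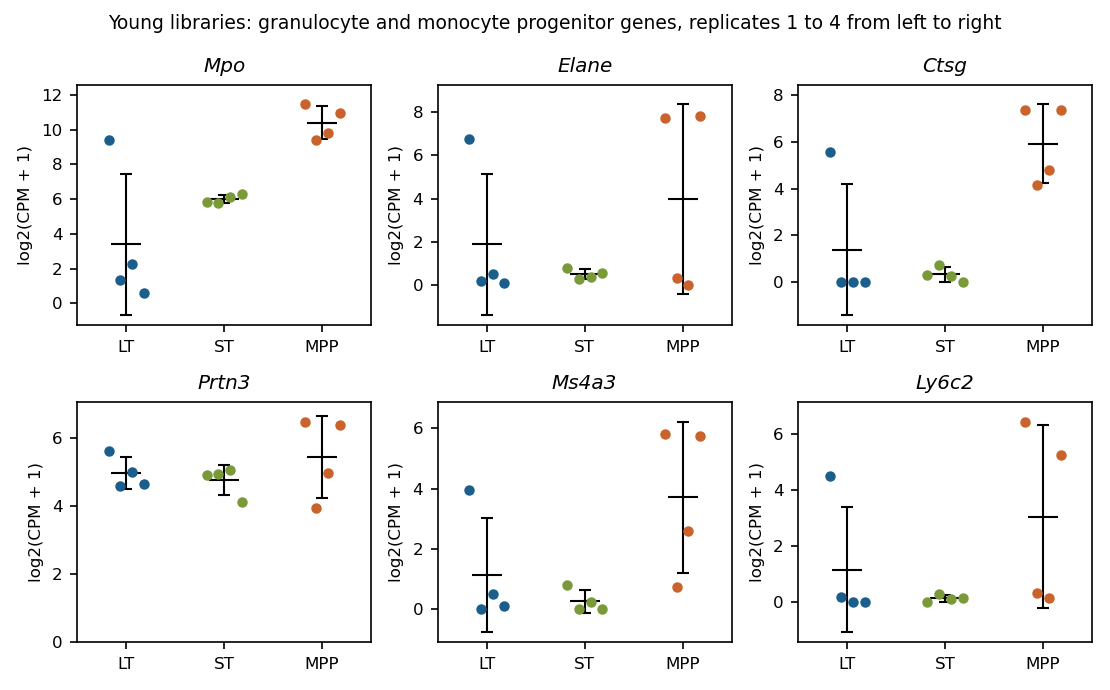
Level of 6 genes of granulocyte and monocyte precursors in the young libraries, as log2(CPM + 1), with young LT-HSC (LT), young ST-HSC (ST) and young MPP from left to right; points run from library 1 to 4 within a group, and the black mark and bar are the mean ± SD. Young MPP libraries 1 and 4 are high, and young LT-HSC library 1 stands above the other young LT-HSC libraries.

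Cell cycle genes fell nearly as a block. Of 67 tested G2 and M phase genes none was higher in young LT-HSC and 65 were lower, with a median log2 change of -2.02, and only Cenpk and Pttg1 did not pass. Of 56 S phase genes 43 were lower and none higher (median -0.75), where 18.3% of all genes were lower. Genes of these phases are known to share promoter elements. The CHR (cell cycle homology region, TTTGAA or TTCGAA) and the CCAAT box, which binds NF-Y, sit before many G2 and M phase genes. E2F sites, searched here as GCGGGAA or TTCGCGC or TTGGCGC, sit before many S phase genes. In the 250 bases before the start, on either strand, the CHR letters stood in 22 of 56 G2 and M phase promoters (39.3%), against 12.4% of 10644 tested genes with a promoter in the RefSeq table for GRCm38.p6. CCAAT stood in 71.4% of them, against 35.8%, and both together in 33.9%, against 4.82%. S phase promoters also held these letters, with CCAAT in 63.6% (28 of 44), the CHR letters in 18.2% and both together in 15.9%. The E2F letters stood in 17 of 44 S phase promoters (38.6%), against 11.9% of tested genes and 12.5% of the G2 and M phase promoters. Over all promoters of the table the shares were 17.4% for the CHR letters, 34.5% for CCAAT and 6.78% for the E2F letters.

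The last 120 bases before the start are shown for 4 G2 and M phase genes that were lower in young LT-HSC and hold both the CHR letters and CCAAT there, and for 2 S phase genes that hold the E2F letters. They are the members, on the chromosomes searched, whose start opens an annotated transcript and whose printed ends were not found in a transcript of the gene. Capitals mark the matches on either strand. A match is a description of the letters and not a binding site.
Ckap5 (chr2:91526642-91526761, plus strand): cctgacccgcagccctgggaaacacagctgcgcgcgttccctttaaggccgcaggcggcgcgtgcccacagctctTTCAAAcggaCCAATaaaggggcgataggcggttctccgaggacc
Ect2 (chr3:27153879-27153998, minus strand): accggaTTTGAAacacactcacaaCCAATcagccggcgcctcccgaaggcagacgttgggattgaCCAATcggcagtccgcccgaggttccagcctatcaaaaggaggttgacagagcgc
Ckap2 (chr8:22185820-22185939, minus strand): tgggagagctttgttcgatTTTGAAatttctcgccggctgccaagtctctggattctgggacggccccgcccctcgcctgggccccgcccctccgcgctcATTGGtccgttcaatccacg
Ckap2l (chr2:129297213-129297332, minus strand): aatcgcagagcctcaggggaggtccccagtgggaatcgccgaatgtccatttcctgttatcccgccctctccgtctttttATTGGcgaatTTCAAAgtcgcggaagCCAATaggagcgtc
Dtl (chr1:191575545-191575664, minus strand): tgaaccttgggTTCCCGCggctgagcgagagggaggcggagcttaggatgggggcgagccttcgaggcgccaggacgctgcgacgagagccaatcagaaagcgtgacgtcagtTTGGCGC
Rrm1 (chr7:102441575-102441694, plus strand): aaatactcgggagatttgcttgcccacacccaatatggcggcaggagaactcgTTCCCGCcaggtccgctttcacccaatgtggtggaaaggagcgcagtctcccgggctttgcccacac
The nearest of these matches lay 35 bases before the start in Ckap5, 55 in Ect2, 20 in Ckap2, 14 in Ckap2l, 7 in Dtl and 67 in Rrm1.

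Ckap5, which encodes a microtubule polymerase of the spindle, had 146, 125, 112 and 141 CPM in young LT-HSC libraries 1 to 4, against 298, 261, 276 and 270.4 CPM in young MPP libraries 1 to 4 (log2 change -1.08, SE 0.13, adjusted p = 1.9e-07). Ect2, the activator of the cleavage furrow, changed by -2.49 (SE 0.40, adjusted p = 5.6e-05), Ckap2 by -1.74 (SE 0.42, adjusted p = 0.0024) and Ckap2l by -2.06 (SE 0.67, adjusted p = 0.02), and the last pair are spindle protein genes. Mad2l1, the spindle checkpoint gene, averaged 13.8 ± 3.78 CPM in young LT-HSC against 42.8 ± 4.20 CPM in young MPP (log2 -1.63, adjusted p = 1.6e-07). Of the condensin genes Smc2 averaged 43.0 ± 4.80 CPM in young LT-HSC against 115 ± 8.73 CPM in young MPP (log2 -1.41, adjusted p = 1.5e-06) and Smc4 61.6 ± 8.07 CPM in young LT-HSC against 130.4 ± 8.88 CPM in young MPP (log2 -1.08, adjusted p = 7.2e-07). Mki67, the usual proliferation marker, had 203, 176, 121 and 261 CPM in young LT-HSC libraries 1 to 4, against 1040.0, 816, 975 and 844 CPM in young MPP libraries 1 to 4, a log2 change of -2.27 (adjusted p = 5.3e-05), and is named after its values were seen. No young LT-HSC value of the 8 genes in this paragraph reached the lowest young MPP value.

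Among S phase genes the replication factor gene Rfc2 averaged 141 ± 22.6 CPM in young LT-HSC against 227 ± 11.1 CPM in young MPP (log2 -0.69, adjusted p = 1.2e-06) and Cdc45 of the replicative helicase 32.8 ± 4.55 CPM in young LT-HSC against 88.1 ± 9.21 CPM in young MPP (log2 -1.42, adjusted p = 5.8e-05). Pola1, a DNA polymerase alpha subunit gene, averaged 70.9 ± 7.08 CPM in young LT-HSC against 129 ± 10.0 CPM in young MPP (log2 -0.87, adjusted p = 0.00018). Its partner gene Pola2 averaged 86.6 ± 5.77 CPM in young LT-HSC against 136 ± 1.02 CPM in young MPP (log2 -0.65, adjusted p = 0.0002). Rrm1, a subunit of ribonucleotide reductase, changed by -1.08 (SE 0.25, adjusted p = 0.0021), and Dtl, an adaptor that licenses proteolysis at replication, by -0.98 (SE 0.21, adjusted p = 0.00094). Rfc2 overlaps Lat2 and Cdc45 overlaps Ufd1 on the other strand. Ccne1, Ccne2 and E2f1, which act at the entry to S phase, did not pass. Replication histone genes also fell, where 18.3% of all genes were lower. Of 42 tested 28 were lower and none higher, with Hist1h4d at 16.7 ± 5.74 CPM in young LT-HSC against 40.3 ± 12.4 CPM in young MPP (log2 -1.26, adjusted p = 0.0013, overlapping groups) and Hist1h2ab at 1.94 ± 0.820 CPM in young LT-HSC against 11.0 ± 4.48 CPM in young MPP (log2 -2.48, adjusted p = 0.00071). Hist1h2an averaged 0.204 ± 0.198 CPM in young LT-HSC against 2.94 ± 0.465 CPM in young MPP (log2 -3.68, adjusted p = 0.0017), and changed by -4.49 without young LT-HSC library 4. Histone genes are near-identical copies, so counting may have shifted reads between them.

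Genes that hold the cell cycle back did not move one way. Of 30 in the list for quiescence 9 were higher and 9 lower, against 18.9% and 18.3% of all genes. Cdkn1c, which encodes the CDK inhibitor p57 needed for stem cell quiescence (chromosome 7, 143458339 to 143461050), had 21.2, 21.7, 23.4 and 25.6 CPM in young LT-HSC libraries 1 to 4, against 1.15, 1.06, 1.83 and 1.45 CPM in young MPP libraries 1 to 4 (log2 change 4.06, SE 0.25, adjusted p = 1e-12). Ndn, an imprinted growth suppressor gene, averaged 34.5 ± 7.09 CPM in young LT-HSC against 3.94 ± 0.736 CPM in young MPP (log2 3.13, adjusted p = 1.8e-10), and Txnip, an inhibitor of thioredoxin and glucose uptake, 1071 ± 237 CPM in young LT-HSC against 418 ± 70.5 CPM in young MPP (log2 1.36, adjusted p = 1e-06). Foxo1 averaged 71.5 ± 11.3 CPM in young LT-HSC against 34.8 ± 3.07 CPM in young MPP (log2 1.04, adjusted p = 1.6e-05). The inhibitor genes Cdkn1a and Cdkn2c were lower, and Cdkn1b did not pass. Of 13 G1 genes 3 were higher and 7 lower. Cdk6, the kinase that sets how fast stem cells leave quiescence, had 138, 207, 177 and 136 CPM in young LT-HSC libraries 1 to 4, against 682, 766, 698 and 692 CPM in young MPP libraries 1 to 4 (log2 change -2.11, SE 0.11, adjusted p = 5.2e-14). Its partner gene Ccnd2 was higher (911 ± 103 CPM in young LT-HSC against 517 ± 64.1 CPM in young MPP, log2 0.82, adjusted p = 3e-07), and the phosphatase gene Cdc25a lower (49.4 ± 6.71 CPM in young LT-HSC against 76.0 ± 3.66 CPM in young MPP, log2 -0.62, adjusted p = 0.00012). Without young LT-HSC library 2 or young MPP library 2 only 1 of these G1 genes was called higher.

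**Figure D4:**
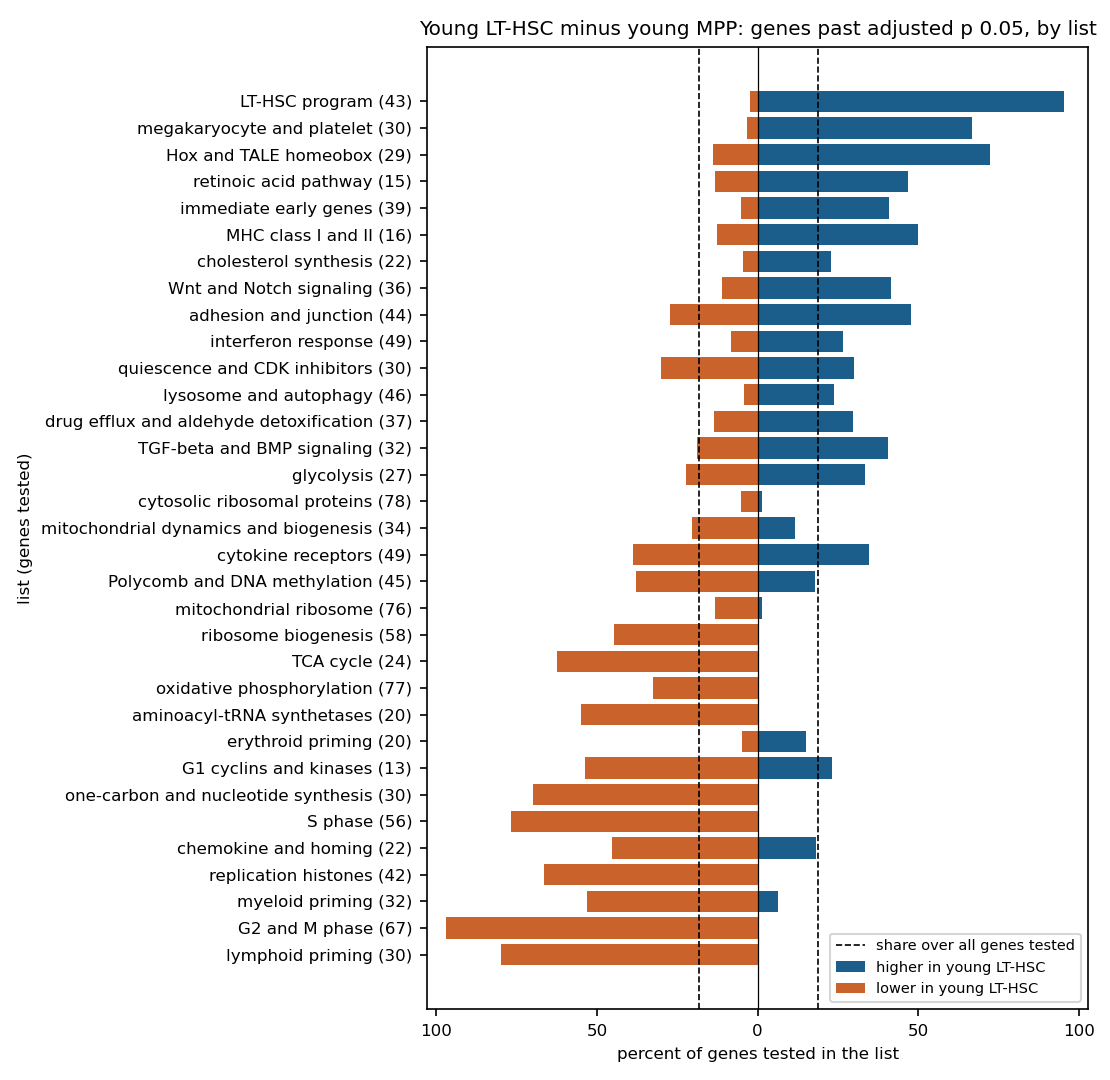
Share of the tested genes of each described list that passed an adjusted p of 0.05, higher (blue, to the right) or lower (orange, to the left) in young LT-HSC than in young MPP, with lists ordered by median log2 change and the number tested in parentheses; dashed lines mark the shares over all genes (18.9% higher and 18.3% lower). The LT-HSC program, homeobox and platelet lists lie far past the right line, and the G2 and M phase, lymphoid, S phase and nucleotide lists past the left one.

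Genes for growth and protein synthesis were lower by small amounts. Over all genes 18.3% were lower and 18.9% higher. Of 30 genes of one-carbon metabolism and nucleotide synthesis 21 were lower and none higher (median log2 change -0.59), though 4 of them, Tyms, Rrm1 and Rrm2 included, are also in the S phase list. Impdh1, which makes guanine nucleotides, had 92.9, 95.4, 85.6 and 73.3 CPM in young LT-HSC libraries 1 to 4, against 201, 203, 228 and 235 CPM in young MPP libraries 1 to 4 (log2 change -1.32, SE 0.09, adjusted p = 4.4e-12). Umps of pyrimidine synthesis averaged 79.0 ± 6.58 CPM in young LT-HSC against 126 ± 11.5 CPM in young MPP (log2 -0.67, adjusted p = 3.3e-06) and Phgdh of serine synthesis 80.9 ± 7.70 CPM in young LT-HSC against 127 ± 10.7 CPM in young MPP (log2 -0.65, adjusted p = 4.2e-06). Of 20 aminoacyl-tRNA synthetase genes 11 were lower, led by Farsa (81.5 ± 6.44 CPM in young LT-HSC against 128 ± 12.7 CPM in young MPP, log2 -0.65, adjusted p = 1.1e-06), Gars (43.8 ± 4.75 CPM in young LT-HSC against 63.2 ± 5.76 CPM in young MPP) and Kars (129 ± 15.1 CPM in young LT-HSC against 174 ± 13.1 CPM in young MPP), and none was higher. Of 58 ribosome biogenesis genes 26 were lower and none higher, and the count was 13 without young LT-HSC library 1 or 4 and 17 without young MPP library 3. Among them Npm1, the nucleophosmin gene, averaged 77.2 ± 7.63 CPM in young LT-HSC against 107 ± 5.63 CPM in young MPP (log2 -0.47, adjusted p = 0.00055), Dkc1, the dyskerin gene, 50 ± 7.05 CPM in young LT-HSC against 71.8 ± 3.99 CPM in young MPP (log2 -0.53, adjusted p = 0.00016), and Heatr1 140.2 ± 22.4 CPM in young LT-HSC against 202 ± 16.0 CPM in young MPP (log2 -0.53, adjusted p = 0.0003). Dkc1 overlaps Mpp1 and Heatr1 overlaps Lgals8 on the other strand.

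The proteins of the cytosolic ribosome were close to level. Of 78 genes 1 was higher (Rpl21) and 4 lower (Rpl4, Rpl12, Rps12 and Rps24), shares below those over all genes, and the median log2 change was -0.03. Rpl4 averaged 1037 ± 112 CPM in young LT-HSC against 1237 ± 81.1 CPM in young MPP (log2 change -0.25), Rpl12 533 ± 42.9 CPM in young LT-HSC against 620.0 ± 33.6 CPM in young MPP (-0.22) and Rps24 238 ± 27.8 CPM in young LT-HSC against 285 ± 10.6 CPM in young MPP (-0.26). None of the 4 passed without young LT-HSC library 1 or without young MPP library 1 or 4, and 1 or 2 passed without young LT-HSC libraries 2 and 4. These genes have many processed copies, and how the authors counted reads shared with them is not given in the sources used here.

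Of 77 nuclear genes of oxidative phosphorylation 25 were lower and none higher, where 18.3% of all genes were lower (median log2 change -0.32). Ndufa4, a subunit of the respiratory chain (chromosome 6, 11900292 to 11907497), had 119, 105, 116 and 101 CPM in young LT-HSC libraries 1 to 4, against 271, 249.5, 266 and 282 CPM in young MPP libraries 1 to 4 (log2 change -1.27, SE 0.09, adjusted p = 3.5e-11). Atp5b of ATP synthase averaged 359.8 ± 23.6 CPM in young LT-HSC against 515 ± 42.6 CPM in young MPP (log2 -0.52, adjusted p = 7.4e-06) and Sdhb of complex II 52.3 ± 3.45 CPM in young LT-HSC against 76.7 ± 4.75 CPM in young MPP (log2 -0.55, adjusted p = 0.00042). The count was 15 without young LT-HSC library 1, 16 without young LT-HSC library 2 and 13 without young MPP library 1. Without young MPP library 1 the count of lower genes over all genes also fell, to 2157 from 2604. Of 24 TCA cycle genes 15 were lower and none higher, among them Idh2 (149 ± 16.6 CPM in young LT-HSC against 251 ± 23.4 CPM in young MPP, log2 -0.75, adjusted p = 8.7e-08), Idh3g (98.5 ± 7.83 CPM in young LT-HSC against 137 ± 10.5 CPM in young MPP, log2 -0.48, adjusted p = 2.1e-05) and Mdh2 (164 ± 13.8 CPM in young LT-HSC against 236 ± 16.4 CPM in young MPP, log2 -0.52, adjusted p = 0.00016). Of 76 mitochondrial ribosome genes 10 were lower and 1 higher, a share of lower genes under the background, and 3 to 6 were lower when one of young LT-HSC libraries 1, 2 and 4 or young MPP libraries 1 and 4 was left out. Mrpl18 averaged 23.6 ± 2.95 CPM in young LT-HSC against 41.4 ± 4.39 CPM in young MPP (log2 -0.81, adjusted p = 0.00042), Mrpl12 31.2 ± 6.65 CPM in young LT-HSC against 46.4 ± 2.12 CPM in young MPP and Mrps7 31.3 ± 2.10 CPM in young LT-HSC against 40.5 ± 1.70 CPM in young MPP. Mrpl18 overlaps Tcp1, and Mrps7 Gga3 and Mif4gd, on the other strand. Mitochondrially encoded genes are not in the lists, and RNA levels of nuclear genes do not measure mitochondrial mass.

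Genes of mitochondrial upkeep moved both ways. Of 34 tested 4 were higher and 7 lower, where 18.9% of all genes were higher and 18.3% lower. Park2, which encodes parkin, the ligase that tags damaged mitochondria, averaged 14.0 ± 5.43 CPM in young LT-HSC against 3.82 ± 1.49 CPM in young MPP (log2 1.87, adjusted p = 6.8e-06), and its partner gene Pink1, the mitophagy receptor gene Bnip3l and the coactivator gene Ppargc1a were the other higher members. The biogenesis factor gene Nrf1 (109.7 ± 7.42 CPM in young LT-HSC against 169 ± 15.2 CPM in young MPP, log2 -0.62, adjusted p = 7e-06) and the import chaperone gene Hspa9 (148 ± 21.1 CPM in young LT-HSC against 193 ± 17.1 CPM in young MPP, log2 -0.39, adjusted p = 0.00092) were lower, with Hspd1, Hspe1, Tomm40, Timm23 and Phb2. Fusion and fission genes (Mfn1, Mfn2, Opa1, Dnm1l and Fis1) did not pass. Glycolysis genes went both ways, with 9 of 27 higher and 6 lower, and 3 lower without young LT-HSC library 4 or young MPP library 4. The glucose transporter genes Slc2a1 (115 ± 15.4 CPM in young LT-HSC against 64.5 ± 9.58 CPM in young MPP, log2 0.83, adjusted p = 8.8e-05) and Slc2a3 (201 ± 9.66 CPM in young LT-HSC against 109 ± 16.5 CPM in young MPP, log2 0.88, adjusted p = 7.4e-08) and the lactate dehydrogenase gene Ldhb (76.4 ± 5.72 CPM in young LT-HSC against 34.1 ± 4.03 CPM in young MPP, log2 1.17, adjusted p = 2.2e-08) were higher. Hk3, a hexokinase gene of myeloid cells, was lower (56.7 ± 10.2 CPM in young LT-HSC against 189 ± 18.2 CPM in young MPP, log2 -1.74, adjusted p = 1.6e-07). Hk3 overlaps Unc5a on the other strand.

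Immediate early genes are switched on quickly by growth factors and by handling of the cells. In young LT-HSC 16 of 39 tested genes were higher and 2 were lower (Btg2 and Myc), against 18.9% and 18.3% of all genes. Maff, a small MAF transcription factor gene, averaged 39.0 ± 3.70 CPM in young LT-HSC against 9.17 ± 2.03 CPM in young MPP (log2 2.09, adjusted p = 1.2e-10), Nr4a2, an orphan nuclear receptor gene, 58.3 ± 12.6 CPM in young LT-HSC against 15.4 ± 4.55 CPM in young MPP (log2 1.92, adjusted p = 9.1e-07), and Egr1 1295 ± 289 CPM in young LT-HSC against 429.8 ± 125 CPM in young MPP (log2 1.59, adjusted p = 8.1e-05). Ppp1r15a, the stress response phosphatase subunit gene, averaged 175 ± 42.4 CPM in young LT-HSC against 48.5 ± 8.74 CPM in young MPP (log2 1.85, adjusted p = 6.6e-07) and overlaps Tulp2 on the other strand. Fos, Jun, Jund, Atf3, Zfp36 and Socs3 did not pass. The count of lower members was 0 without young LT-HSC library 1 or young MPP library 3, and 1 without young LT-HSC library 4 or any other young MPP library. How long each population spent in sorting is not in the labels, and its part in the result was not tested.

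Of 49 interferon response genes 13 were higher and 4 lower and the other 32 did not pass, where 18.9% of all genes were higher and 18.3% lower. There were 2 lower without young LT-HSC library 1, 2 or 4 or young MPP library 3. The antiviral membrane protein genes Ifitm1 (262 ± 26.3 CPM in young LT-HSC against 66.9 ± 12.1 CPM in young MPP, log2 1.97, adjusted p = 3.3e-08) and Ifitm3 (351 ± 33.4 CPM in young LT-HSC against 176 ± 16.4 CPM in young MPP, log2 0.99, adjusted p = 3.2e-07) were higher, with the GTPase genes Gbp3, Gbp4, Gbp5, Gbp7, Igtp and Irgm2, and Tap2, a peptide transporter gene, was lower (142 ± 20.3 CPM in young LT-HSC against 236 ± 15.1 CPM in young MPP, log2 -0.73, adjusted p = 2.5e-07). Irf7, Isg15 and Ifit1 did not pass. Of 16 MHC genes 8 were higher and 2 lower. The nonclassical class I gene H2-T23 averaged 216 ± 3.00 CPM in young LT-HSC against 137 ± 9.72 CPM in young MPP (log2 0.66, adjusted p = 2.7e-06), and the class II genes H2-Aa, H2-Eb1 and Cd74 and their activator gene Ciita were higher. H2-Ob, which modulates peptide loading in B cells, was lower (12.8 ± 5.01 CPM in young LT-HSC against 127 ± 14.7 CPM in young MPP, log2 -3.31, adjusted p = 2.6e-11), as was H2-DMa (85.3 ± 9.69 CPM in young LT-HSC against 139.6 ± 10.2 CPM in young MPP, log2 -0.71, adjusted p = 7.4e-07), which overlaps Brd2 on the other strand.

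Of 46 lysosome and autophagy genes 11 were higher and 2 lower, near the background for higher genes and below it for lower ones. Gabarapl1, an autophagosome protein gene, averaged 141 ± 10.4 CPM in young LT-HSC against 70.3 ± 4.97 CPM in young MPP (log2 1.01, adjusted p = 1.7e-09), and Gaa, the lysosomal glucosidase gene, 229 ± 23.0 CPM in young LT-HSC against 137 ± 6.16 CPM in young MPP (log2 0.74, adjusted p = 5e-06). Ctsl, the cathepsin L gene, averaged 18.4 ± 3.05 CPM in young LT-HSC against 7.41 ± 1.98 CPM in young MPP (log2 1.31, adjusted p = 1.6e-05). Of 22 cholesterol synthesis genes 5 were higher and 1 lower, against 18.9% and 18.3% of all genes. Stard4, a sterol carrier gene (81.6 ± 5.99 CPM in young LT-HSC against 43.6 ± 3.53 CPM in young MPP, log2 0.90, adjusted p = 4.7e-06), and Sc5d (34.0 ± 6.04 CPM in young LT-HSC against 18.5 ± 2.80 CPM in young MPP, log2 0.87, adjusted p = 6.8e-05) were higher, and Ebp, a sterol isomerase gene, lower (21.6 ± 5.8 CPM in young LT-HSC against 36.5 ± 2.77 CPM in young MPP, log2 -0.76, adjusted p = 0.00013).

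Chromatin regulators moved both ways. Of 45 Polycomb and DNA methylation genes 8 were higher and 17 lower in young LT-HSC, against 18.9% and 18.3% of all genes. Ezh2, the H3K27 methyltransferase of cycling cells (chromosome 6, 47530139 to 47595341), had 44.6, 64.1, 61.6 and 66.6 CPM in young LT-HSC libraries 1 to 4, against 135, 142, 157 and 142 CPM in young MPP libraries 1 to 4 (log2 change -1.28, SE 0.15, adjusted p = 1.6e-07), and its partner genes Suz12 (77.8 ± 6.71 CPM in young LT-HSC against 114 ± 11.5 CPM in young MPP, log2 -0.55, adjusted p = 3.9e-05) and Eed were lower too. The paralog Ezh1 was among the higher genes, with the reader genes Cbx6 (242 ± 9.49 CPM in young LT-HSC against 125 ± 7.02 CPM in young MPP, log2 0.95, adjusted p = 1.1e-08) and Cbx7, while Cbx2 was lower. Asxl1 averaged 195 ± 19.0 CPM in young LT-HSC against 268 ± 13.7 CPM in young MPP (log2 -0.46, adjusted p = 8.7e-05). The maintenance methylation genes Dnmt1 and Uhrf1, which also stand in the S phase list, and Dnmt3b were lower, and Dnmt3a, Tet1 and Tet2 did not pass. Smaller lists gave mixed counts, with 7 of 27 p53 target genes higher and 5 lower, 3 of 19 hypoxia genes each way, and 16 of 32 proteasome genes lower and none higher. The hypoxia counts lay below the shares over all genes, and the count of lower p53 targets near them.

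The young ST-HSC mean lay between those of young LT-HSC and young MPP for most of the genes of largest change. Against young ST-HSC, 964 genes (6.79%) were called higher and 816 (5.74%) lower in young LT-HSC, 12.5% in all. In young ST-HSC against young MPP, 1495 genes (10.5%) were called higher and 1434 (10.1%) lower, 20.6% in all. These comparisons share libraries with the main one. The young ST-HSC mean lay between the other groups for 14 of the 15 named genes of largest rise. It did so for 12 of the 15 of largest fall. These genes were chosen for the largest log2 changes between young LT-HSC and young MPP, with groups that did not overlap. Another mean tends to fall between such extremes through the choice itself. The counts therefore cannot tell whether young ST-HSC are intermediate. Tgm2 stood at 559 ± 74.0 CPM in young LT-HSC, 78.8 ± 22.8 CPM in young ST-HSC and 13.0 ± 3.36 CPM in young MPP. Mecom stood at 342 ± 14.9 CPM in young LT-HSC, 191 ± 5.79 CPM in young ST-HSC and 78.2 ± 9.79 CPM in young MPP. Vwf stood at 344 ± 82.2 CPM in young LT-HSC, 22.2 ± 2.11 CPM in young ST-HSC and 11.6 ± 5.59 CPM in young MPP. Flt3 stood at 28.7 ± 2.12 CPM in young LT-HSC, 391 ± 49.0 CPM in young ST-HSC and 485 ± 26.4 CPM in young MPP. These steps differ on the log2 scale. Vwf and Flt3 had most of their log2 change between young LT-HSC and young ST-HSC, while the steps of Tgm2 were close in size. For Hlf young ST-HSC had the highest mean, 1407 ± 93.4 CPM. The cell cycle genes Mad2l1, Smc2 and Mki67 averaged 17.7 ± 3.69, 40.5 ± 13.2 and 309 ± 71.9 CPM in young ST-HSC, means closer to those of young LT-HSC than to those of young MPP.

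The same pair of populations in aged mice gave 8068 genes past the threshold (56.8%), of which 4016 (28.3%) were higher and 4052 (28.5%) lower in aged LT-HSC. Of the genes higher in young LT-HSC, 2329 (86.8%) were also called higher in aged LT-HSC and 20 lower, and of those lower in young LT-HSC 2253 (86.5%) were also lower and 18 higher. In the other direction, 58.0% of the genes higher and 55.6% of those lower in aged LT-HSC had the same call in young mice. The difference between the ages was tested itself. It passed for 1411 genes (9.93%), with 694 (4.89%) positive and 717 (5.05%) negative young minus aged differences. In 1090 of them the change had the same sign at both ages and was larger in aged mice, in 51 it was larger in young mice, and in 270 the signs were opposite.

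Of the 8 genes named for the smallest p of this difference, 3 did not pass between the young populations and rose in aged LT-HSC. Gpr183, an oxysterol receptor gene (chromosome 14, 121952551 to 121965195), had 21.7, 15.3, 12.6 and 17.3 CPM in young LT-HSC libraries 1 to 4, against 13.3, 12.4, 18.6 and 18.1 CPM in young MPP libraries 1 to 4 (log2 0.10, adjusted p = 0.69), while in aged mice it averaged 183 ± 35.4 CPM in LT-HSC and 18.6 ± 2.43 CPM in MPP. The young minus aged difference of the log2 changes was -3.19 (adjusted p = 1.5e-09). Alcam, an adhesion molecule gene, averaged 76.7 ± 14.2 CPM in young LT-HSC against 76.8 ± 7.86 CPM in young MPP and 351 ± 37.8 CPM in aged LT-HSC against 74.3 ± 10.2 CPM in aged MPP (difference -2.24, adjusted p = 5.9e-09). Apbb2 averaged 18.4 ± 4.80 CPM in young LT-HSC against 25.2 ± 3.78 CPM in young MPP and 75.3 ± 10.6 CPM in aged LT-HSC against 17.4 ± 4.28 CPM in aged MPP (difference -2.56, adjusted p = 3.7e-07). Its young change missed the threshold (log2 -0.45, adjusted p = 0.057), with 0.029 and 0.043 without young LT-HSC library 3 and young MPP library 2.

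Others of the set changed at both ages. On the log2 scale the sialyltransferase gene St3gal1 changed by 1.40 in young and 2.69 in aged mice (adjusted p = 2e-07 for the difference). Enpp5 changed by 1.56 in young and 3.45 in aged mice (adjusted p = 2.5e-07). Slc28a2, a nucleoside transporter gene, fell by more in aged mice (-0.65 in young and -2.71 in aged, adjusted p = 4.6e-08). Evc and Nbea, named for their rise in young LT-HSC and not for this difference, ran the other way, with a larger rise in young mice. The log2 changes of Nbea were 5.32 in young and 3.69 in aged mice (adjusted p = 0.0064 for the difference), and aged MPP held 7.03 ± 5.65 CPM of Evc where young MPP held 0.0574 ± 0.115 CPM (adjusted p = 0.0015 for the difference). The young minus aged difference of Evc was 5.58, and 8.06 without young MPP library 1.

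By list, the difference between ages passed for 27 of 43 genes of the LT-HSC program, 26 of them with a larger change in aged mice, where 9.93% of all genes passed. The median log2 change of that list was 1.97 in young and 3.15 in aged mice. The test passed for 32 of 56 S phase genes, all larger in aged mice (median log2 change -0.75 in young and -2.0 in aged mice). It passed for 3 of 67 G2 and M phase genes (median -2.02 in young and -2.75 in aged mice). Of the nucleotide synthesis genes 15 of 30 passed, and of the oxidative phosphorylation genes 16 of 77, each larger in aged mice. Among lymphoid genes 5 of 30 passed, Satb1 and Flt3 among them, with log2 changes of -3.92 and -4.08 in young and -5.56 and -5.28 in aged mice. Mpo had a difference of 9.29 (adjusted p = 0.028), and of 2.79 (adjusted p = 0.44) without young LT-HSC library 1. Over all 25 alternatives the adjusted p of this difference ran from 6.1e-06 to 0.73.

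**Figure D5:**
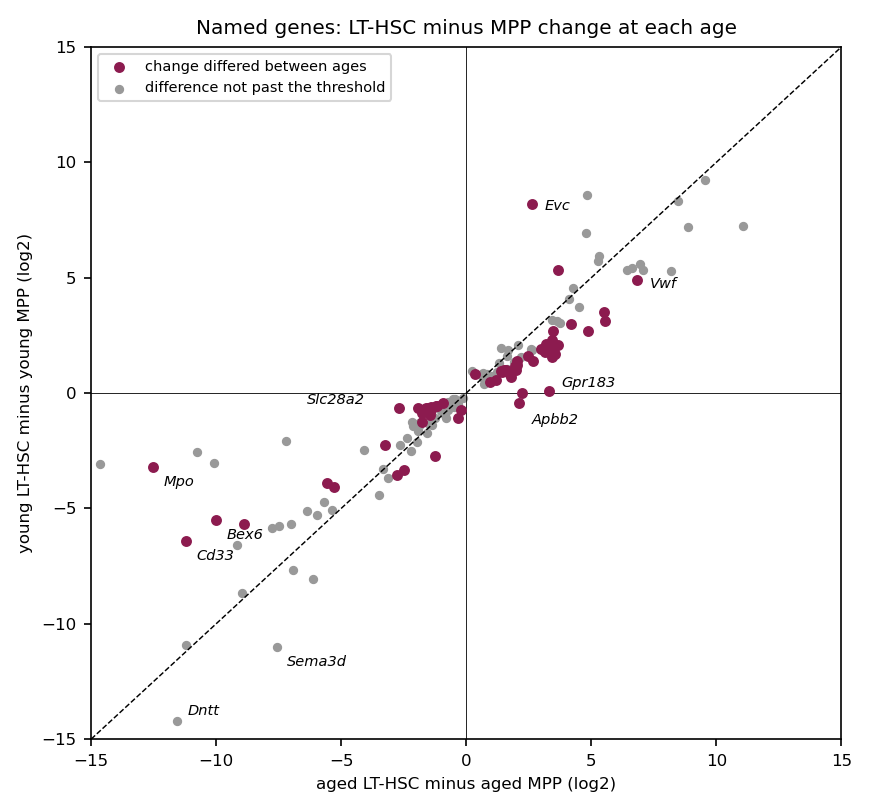
Log2 change of LT-HSC minus MPP in young mice (vertical axis) against that in aged mice (horizontal axis) for the 156 named genes; dark red points are genes whose change differed between ages at an adjusted p of 0.05, grey points the others, and the dashed line marks equal changes. Gpr183 and Apbb2 lie near 0 in young mice and above 2 in aged mice, and 51 of the 59 dark red points have a smaller change in young mice than in aged mice.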

How the data were processed

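Bulk RNA was sequenced from 24 sorted populations, 6 groups of 4. Per the labels' protocols, cDNA was made with not-so-random primers and PrimeScript, made double-stranded with Klenow and tagged with Nextera XT, which marks neither strand nor molecule. The authors trimmed with Trim Galore, aligned with HISAT2 to mm10 and counted with featureCounts, per the submitters' processing notes, with no versions stated. What the authors deposited are raw counts per gene symbol. Of 24421 gene lines 14205 passed filterByExpr and held 99.9% of all counts, and 27 symbols turned into dates held at most 0.192% of a library. Hemoglobin genes were at 0 counts in all libraries, so erythroid cells cannot be read from them.

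Counts were fitted with edgeR 4.0.16 in R 4.3.3 (TMM, group means, robust quasi-likelihood over all 24 libraries), with Benjamini-Hochberg adjustment over 14205 genes and a threshold of 0.05. The residual degrees of freedom were 18. CPM used TMM-scaled library sizes, and figures show log2(CPM + 1). Marker shares were compared by two-sided exact permutation tests. The fit was tested on simulated counts. Members and gene lists were chosen with earlier results of these data known. Genes were named by a rule: the sort genes, up to 15 genes of largest log2 change each way with a mean of at least 10 CPM and groups that did not overlap, up to 4 of smallest p in each of 33 lists and up to 8 of smallest p for the difference between ages, passing over predicted genes. Some genes that the rule or the lists hold are not reported here. Mpo, Elane, Ctsg, Prtn3, Ms4a3, Ly6c2, Mki67 and Jchain were added after their values were seen, and genes given only by direction are members of the lists. Promoter sequences are from RefSeq for GRCm38.p6, matched by symbol for 10644 of the tested genes. Those printed were members lower in young LT-HSC with the motifs in 120 bases that passed the checks against annotated transcripts. Alternatives were RLE factors, library totals, DESeq2 1.42.0, limma-voom (limma 3.58.1), no count filter, only the groups compared, a replicate block, 45S and hemoglobin genes left out, thinning to the shallowest library and leaving out each library.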

Additional observations from a re-analysis of the deposited data

Results flagged for a closer look

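A library stood far from the other 3 of its group, by a gap above Dixon's 95% critical value for 4 values, in 31 of 330 groups of 4 examined (9.39%). Chance flags about 1 in 20 groups, and values of 1 library are not independent. Mpo, Elane, Ctsg, Ms4a3, Ly6c2 and Jchain were named after their values were seen, so their flags partly follow from that choice. Where the other values of a group are all 0, any count is flagged. For these reasons the share flagged cannot be set against the chance rate. Of the 31, 10 were young LT-HSC library 1, each of them high, and 7 were young MPP library 1, of which 6 were high. In young LT-HSC library 1 the values apart from the group were those of Ctsg (46.7 CPM, others 0), Elane (106 CPM, others 0.0761 to 0.417), Hk3 (72.0 CPM, others 50.5 to 52.5) and Ly6c2 (21.6 CPM, others 0 to 0.128). Others there were Mpo (682 CPM, others 0.533 to 3.86), Ms4a3 (14.5 CPM, others 0 to 0.417), Rab44 (9.13 CPM, others 0.104 to 0.533) and Rarb (29.1 CPM, others 18.2 to 20.0). Others there were Slc28a2 (52.6 CPM, others 43.3 to 44.8). In young LT-HSC library 2 the values apart from the group were those of Mdh2 (185 CPM, others 156 to 158). In young LT-HSC library 3 the values apart from the group were those of Cd244 (7.09 CPM, others 1.66 to 2.43) and Ndn (45.1 CPM, others 30.4 to 31.4). In young LT-HSC library 4 the values apart from the group were those of Abcg2 (67.1 CPM, others 75.1 to 76.3). In young MPP library 1 the values apart from the group were those of Emb (150.5 CPM, others 114 to 115), Evc (0.230 CPM, others 0), Evc2 (0.345 CPM, others 0) and Gaa (128 CPM, others 139.6 to 141). Others there were Runx1t1 (0.230 CPM, others 0) and Sdpr (1.03 CPM, others 0). In young MPP library 2 the values apart from the group were those of Farsa (147 CPM, others 119 to 123), Hist1h2an (2.24 CPM, others 3.13 to 3.22), Pclo (1.85 CPM, others 0 to 0.243) and Phgdh (142 CPM, others 120 to 123). In young MPP library 3 the values apart from the group were those of Sc5d (22.6 CPM, others 16.5 to 17.5). In young MPP library 4 the values apart from the group were those of Jchain (284 CPM, others 0.243 to 1.85), Meg3 (0.241 CPM, others 0) and Txnip (523 CPM, others 374 to 387). Shares of the counts stood apart for markers of T and NK cells in young LT-HSC library 4 (0.00217%, others 0.00178 to 0.00180%), markers of granulocytes in young LT-HSC library 1 (0.00391%, others 0.000475 to 0.000991%), markers of mast cells basophils and eosinophils in young MPP library 3 (0.0511%, others 0.00287 to 0.00607%) and markers of endothelial and stromal cells in young MPP library 1 (0.0812%, others 0.0350 to 0.0376%).

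The LT-HSC minus MPP change differed between young and aged mice, by the test of the difference itself (edgeR, Benjamini-Hochberg adjustment over all genes tested), for 59 of the 156 named genes, where 9.93% of all genes tested passed. Some genes were named for this test, so the share describes the named genes only. The values below are young minus aged differences of log2 changes. Of the differences given here 34 were negative, in alphabetical order Abcg2 -0.80, Alcam -2.24, Apbb2 -2.56, Car2 -0.63, Cbx6 -0.44, Csf3r -0.75, Dhrs3 -1.47, Eng -0.51 and Enpp5 -1.88. Then came F11r -0.88, Fgd5 -2.21, Fzd3 -1.16, Gpr183 -3.19, Hlf -1.09, Ifitm3 -0.58, Il1r1 -0.85, Itga6 -0.98 and Ldhb -0.77. These were followed by Lmo2 -0.45, Lrp5 -0.54, Mecom -1.05, Meis1 -0.54, Mllt3 -0.77, Mmrn1 -1.18, Ndn -2.44, Nr4a2 -1.09 and Pdgfrb -0.78. Next in that order were Procr -1.85, Rarb -1.53, Slc2a3 -0.85, St3gal1 -1.29, Sult1a1 -2.01, Vwf -1.94 and Zfpm1 -0.64. The other 23 were positive, in alphabetical order Bex6 4.50, Ccnd2 0.46, Cd33 4.81, Cd34 1.00, Cd48 3.21, Cdc25a 0.81, Evc 5.58, Flt3 1.20 and Idh2 0.65. Then came Kars 0.49, Mpo 9.29, Mrpl12 0.62, Nbea 1.63, Ndufa4 0.49, Phgdh 0.87, Pola1 0.92, Pola2 0.95 and Rfc2 0.95. These were followed by Satb1 1.64, Sdhb 0.61, Slc28a2 2.06, Tgfb1 0.50 and Umps 1.28. A negative value arises from a larger rise in aged mice, a smaller fall in aged mice or opposite signs, and of the 59 genes 51 had the larger change in aged mice. Leaving out 1 library moved 6 of the differences by more than 1.5-fold once the log2 values were turned back to ratios. Bex6 was 6.18 without aged LT-HSC library 4, Cd33 6.50 (adjusted p = 0.075) without aged LT-HSC library 1 and Evc 8.06 without young MPP library 1. Cd48 was 1.99 (adjusted p = 0.066) without young LT-HSC library 3. It was 4.31 without aged LT-HSC library 3, and Ndn was -3.05 without aged MPP library 4. The Mpo difference was 2.79 (adjusted p = 0.44) without young LT-HSC library 1. Calls were lost on leaving out, one at a time, the libraries given next. For Cbx6 these were young LT-HSC libraries 2, 3 and 4, young MPP libraries 2, 3 and 4, aged LT-HSC libraries 2, 3 and 4 and aged MPP libraries 3 and 4 (adjusted p 0.06 to 0.11). For Ccnd2 these were young LT-HSC libraries 1 and 2, young MPP libraries 1, 3 and 4, aged LT-HSC libraries 3 and 4 and aged MPP library 2 (adjusted p 0.053 to 0.07). For Cd33 these were young LT-HSC libraries 3 and 4, young MPP libraries 1, 2 and 3, aged LT-HSC libraries 1, 2, 3 and 4 and aged MPP libraries 1, 3 and 4 (adjusted p 0.05 to 0.12). For Cd48 this was young LT-HSC library 3 (adjusted p = 0.066). For Fzd3 these were young LT-HSC libraries 3 and 4, young MPP libraries 1 and 2, aged LT-HSC library 2 and aged MPP libraries 2 and 4 (adjusted p 0.055 to 0.077). For Ifitm3 these were young LT-HSC libraries 2, 3 and 4, young MPP libraries 1, 2 and 3, aged LT-HSC libraries 1 and 2 and aged MPP libraries 2, 3 and 4 (adjusted p 0.057 to 0.093). For Kars this was young MPP library 2 (adjusted p = 0.054). For Mpo these were young LT-HSC library 1, young MPP library 2 and aged LT-HSC libraries 1, 2, 3 and 4 (adjusted p 0.051 to 0.44). For Mrpl12 these were young LT-HSC library 3, young MPP library 2, aged LT-HSC library 2 and aged MPP library 4 (adjusted p 0.054 to 0.082). For Nr4a2 these were young LT-HSC libraries 1 and 4, young MPP libraries 2 and 3, aged LT-HSC libraries 2 and 4 and aged MPP libraries 1 and 3 (adjusted p 0.051 to 0.087).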

How the results depend on the processing

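For young LT-HSC minus young MPP, genes past the threshold numbered 4606 to 5414 over 17 alternatives (5287 as reported), with 5266 by RLE size factors, 5121 by library totals, 5414 by DESeq2, 5272 by limma-voom, 5059 with no count filter and 4606 to 5022 when 1 library was left out. None of the 255 recomputed counts over all genes moved by more than 1.5 times. For aged LT-HSC minus aged MPP they ran from 7638 to 7772 with 1 library left out, and for the difference between ages from 1007 to 1616, and to 1798 by DESeq2. Same-numbered young LT-HSC and young MPP libraries did not deviate together (correlations 0.049, 0.035, 0.087 and -0.012), not every library correlated best with its own number, and with the replicate block the young, aged and difference counts were 5350, 8065 and 1499. Of 2649 values of named genes in the young comparison 27 lost the threshold, in 5 genes, 13 gained it and 0 reversed, and in the difference between ages 81 values in 11 genes lost it. Of 1122 list counts 87 moved by more than 1.5 times. Beyond those given with the lists, library totals left 5 mitochondrial ribosome, 3 glycolysis, 3 drug efflux and 1 cytosolic ribosomal protein gene lower, and the replicate block gave 9 cholesterol synthesis genes higher. Differences in marker shares too small to have a stable sign were those of erythroblasts (-0.00655 to 0.00377 percentage points with 1 library left out) and Rn45s (-0.373 to 0.991). Depth limits genes with a few counts in a group, where folds rest on 1 library.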

Other observations

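Imprinted genes are expressed from 1 parental copy, and only some of them are known to restrain growth of stem cells in mice. They were looked at after values such as those of Meg3 and Cdkn1c had been seen, so the counts describe a list chosen on these data. Of 34 tested 19 were higher in young LT-HSC and 2 lower, against 18.9% of all genes higher, with a median log2 change of 1.09. Grb10, which encodes an adaptor that dampens growth factor receptors, averaged 268 ± 11.1 CPM in young LT-HSC against 11.9 ± 4.17 CPM in young MPP (log2 change 4.49, adjusted p = 7.2e-12). Rian, of the same cluster as Meg3, averaged 17.6 ± 9.20 CPM in young LT-HSC against 0.0301 ± 0.0602 CPM in young MPP. Igf2 (4.14 ± 0.574 CPM), H19 (2.37 ± 1.65 CPM) and Rtl1 (3.61 ± 0.805 CPM) were present in young LT-HSC and had no count in young MPP. Airn, the antisense RNA of Igf2r, averaged 18.7 ± 3.96 CPM in young LT-HSC against 3.17 ± 0.192 CPM in young MPP, and overlaps Igf2r, whose own log2 change was 0.75. Lower in young LT-HSC were Slc22a3 (70.3 ± 18.5 CPM in young LT-HSC against 197 ± 16.6 CPM in young MPP) and H13. Gnas, Mest, Nnat and Ube3a did not pass. Which parental copy was read is not in the counts.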
